A study of Drosophila melanogaster with 8 samples.

Results

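Oxidative phosphorylation is carried out in the inner mitochondrial membrane by 5 protein complexes. Complex I oxidises NADH, complex II oxidises succinate, complex III passes electrons to cytochrome c, complex IV reduces oxygen, and complex V, the ATP synthase, uses the resulting proton gradient to make ATP. Most subunits are encoded in the nucleus, translated on cytosolic ribosomes and imported, whereas a few are encoded by mitochondrial DNA. The genes described here are the nuclear genes whose single array symbol starts with ND- (complex I), Sdh followed by A to D (complex II), UQCR-, Cyt-c1 or RFeSP (complex III), COX and a digit (complex IV) or ATPsyn (complex V). The pattern found 75 genes among 11982 named genes of the array, and among 17104 features once each gene was reduced to its brightest probe set and unnamed probe sets were kept. Of the 75, 32 belonged to complex I, 6 to complex II, 9 to complex III, 14 to complex IV and 14 to complex V. Subunit genes that carry other names, such as blw (ATP synthase alpha), levy, cype and sun, were not chosen by the pattern. In the fly, many subunit genes have a duplicate whose symbol ends in L, and such duplicates are known for expression in the testis.

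The samples were S2 cells, an established Drosophila melanogaster line of haemocyte (blood cell) character that came from embryos. Their genotype is given as wildtype in every group. Control cells received double-stranded RNA (dsRNA) against GFP, and knockdown cells received dsRNA against DENR. DENR works with MCTS1 in the re-initiation of translation. From each treatment, total RNA and RNA bound to single ribosomes and polysomes (80S+polysomes, here called ribosome-bound RNA) were measured on Affymetrix arrays. This gave 4 groups of 2 arrays, described in the design text as biological replicates. All cells thus carried a dsRNA, and no untreated cells and no second dsRNA against DENR are among the samples. Dose, exposure time and passage are not given in the sources used here. Signals were RMA values on the log2 scale, and with so few arrays every value has limited precision, set by their number.

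DENR itself read 8.28 and 8.18 in control total RNA and 7.38 and 7.60 in knockdown total RNA. In ribosome-bound RNA it was 8.41 and 8.26 in control cells and 5.40 and 4.46 in knockdown cells. The ribosome-bound difference of -3.40 ± 0.25 (log2, moderated standard error, n = 2 per group) was called by limma after Benjamini-Hochberg adjustment (adjusted p = 0.000203), and the difference of -0.74 ± 0.25 in total RNA was not (adjusted p = 0.170). On the first principal component of all tested features, which held 65.8% of the variance, replicate 1 of the knockdown total RNA lay apart at -9.01, against -29.6, -35.1 and -27.3 for the other total RNA arrays and 22.3 to 29.4 for the ribosome-bound arrays. All 14 haemocyte markers on the array passed the filter on low signals described below, and 4 of them (Hml, He, NimC1 and Sr-CI) fell in both knockdown comparisons, where 0.702% and 0.692% of all features fell. The other haemocyte markers were called in neither. Their differences ran from -0.49 (eater) to 0.40 (Fer1HCH) in total RNA and from -0.90 (LanA) to 0.20 (crq) in ribosome-bound RNA. Of 14 testis markers 9 were below that filter and none had a mean signal of 7 or more, and all 3 muscle markers were below it. In the other lists, all 4 neuron markers, 3 of 5 ovary and germline markers and 2 of 4 fat body markers passed the filter. Among these only 1, aub (8.18), had a mean of 7 or more, beside 9 of the 14 haemocyte markers. Another ovary and germline marker, piwi, lay just below that level at 6.90. Passing the filter alone therefore does not mark a cell type. Fewer cells of a kind and less RNA per cell cannot be told apart in such bulk samples.

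The subunit genes separated by name into those with a clear signal and those near background. A feature was tested if its mean over the 8 arrays was at least 2.12, which kept the brightest 60% of features. In total, 62 of the 75 genes passed, among them 51 of the 53 genes without a final L (or L and a number) and 11 of the 22 with one. A mean signal of at least 7 was seen for 49 genes, all of them without the final L: 24 of complex I, 3 of complex II, 5 of complex III, 7 of complex IV and 10 of complex V. These 49 means ran from 7.79 to 11.89, whereas 26.8% of all tested features had a mean of at least 7. A mean under 3, close to the array medians of 2.32 to 2.48, was seen for 22 genes, of which 20 carried the final L and the others were ND-B8 and UQCR-11. The remaining 4 genes lay between these levels: ND-75, ND-B12, Cyt-c1L and ATPsynepsilonL. Signals of different probe sets depend on the probes as well as on the transcript, so these levels place each gene against the filter and are not an order of abundance.

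For 15 of the 22 L genes the gene they are named after was also measured, and in 13 of these pairs the named gene was at 7 or more and the L gene under 3. ATPsynbeta, the catalytic subunit, had a mean of 9.38 and ATPsynbetaL 2.15, just past the filter. SdhB, the iron-sulphur subunit of complex II, had a mean of 7.95 and SdhBL 1.51, below it. The same held for COX4 and COX4L (10.75 and 2.60), ND-20 and ND-20L (8.43 and 2.80), SdhC and SdhCL (10.43 and 1.80) and ATPsynCF6 and ATPsynCF6L (10.58 and 1.85). ND-51, which binds the flavin that accepts electrons from NADH, had 2 such relatives, ND-51L1 and ND-51L2, at 2.75 and 2.59. The remaining pairs with that split were COX5B and COX5BL, COX7A with COX7AL and COX7AL2, ND-B14.5A and ND-B14.5AL, and UQCR-14 and UQCR-14L. The exceptions were Cyt-c1L, a relative of the haem-carrying cytochrome c1, at 5.34, and UQCR-11L, at 2.17 beside UQCR-11 at 2.11. ATPsynepsilonL, whose relative among the epsilon subunits is named sun and was not chosen by the pattern, had a mean of 6.49.

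The 13 genes below the filter were ND-24L, ND-B14.5AL, ND-B8, SdhAL, SdhBL, SdhCL, UQCR-11, COX5BL, COX6AL2, COX6CL, COX7AL, ATPsynCF6L and ATPsynGL. They were not tested, and their low signal sets no bound on their transcript level. Just inside the filter lay COX6AL (2.13), ATPsynbetaL (2.15) and UQCR-14L (2.16), and just outside it UQCR-11 (2.11), COX6AL2 (2.11) and ATPsynGL (2.08). A probe set shared by several gene symbols was not counted as a gene, which left out 4 sets that named COX6B, COX6AL2, ATPsynG and ND-AGGG together with another gene. The median absolute difference between the 2 arrays of a group was taken over the tested subunit genes. It was 0.110 in control total RNA, 0.132 in knockdown total RNA, 0.107 in control ribosome-bound RNA and 0.110 in knockdown ribosome-bound RNA. Over all tested features the same medians were 0.177, 0.183, 0.150 and 0.141.

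**Figure D1:**
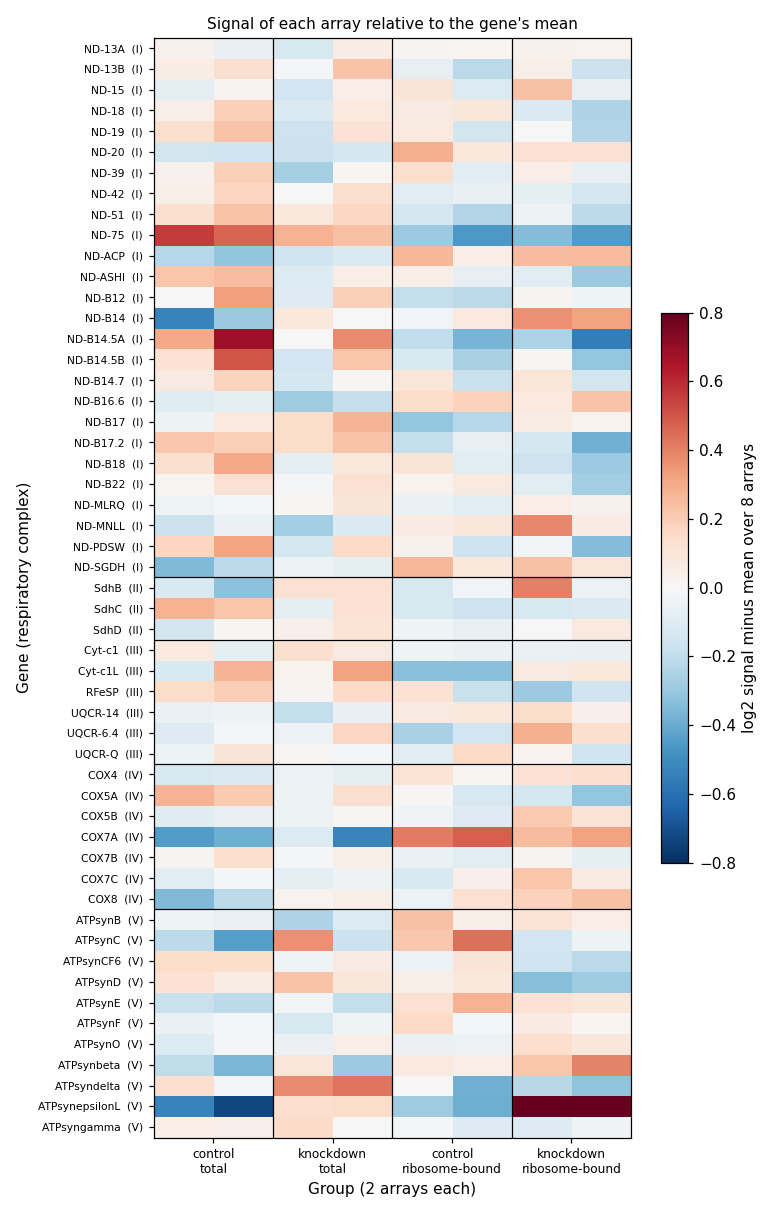
Log2 signal of each array minus the gene's mean over the 8 arrays, for the 53 subunit genes with a mean signal of at least 3, by respiratory complex (rows) and group (columns, 2 arrays each). The colour scale runs from -0.8 (blue) to 0.8 (red). ND-75 is above its mean on the 4 total RNA arrays and below it on the 4 ribosome-bound arrays, COX7A runs the other way, and ATPsynepsilonL is highest in knockdown ribosome-bound RNA.

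The effect of DENR knockdown on total RNA was examined first. A single subunit gene rose and none fell: ATPsynepsilonL, a relative of the epsilon subunit of the ATP synthase central stalk. It read 5.95 and 5.76 in control cells and 6.62 and 6.63 in knockdown cells. Both knockdown arrays were higher than both control arrays. The difference was 0.77 ± 0.13 (log2, moderated standard error, n = 2 per group), a 1.70-fold rise (limma, adjusted p = 0.0206 after Benjamini-Hochberg correction over 10262 features). That 1 call is 1.61% of the 62 genes tested, and 1.58% of all features were called in this comparison (0.877% higher and 0.702% lower), so the share among subunit genes was near the background. The call was lost when only the total RNA arrays were fitted (adjusted p = 0.127). It was also lost without replicate 2 of the control total RNA (0.146), without replicate 1 of the knockdown total RNA (0.0910) and without either knockdown ribosome-bound array (0.0501 each).

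The other 61 tested genes were not called, and their differences were small beside those of the array as a whole. Of the 62, 60 differed by less than 0.5 on the log2 scale (96.8%, against 90.7% of all features). For 60 of them the 95% interval of the difference lay within 1 log2 unit of 0, and for 40 within 0.5. The standard deviation of the differences was 0.22 over the tested subunit genes and 0.31 over all tested features. Before adjustment, 5 genes had p under 0.05, as did 17.6% of all features. The arrays of the 2 groups did not overlap for 15 genes that were higher and 14 that were lower in knockdown cells, where 24.5% and 21.5% of all features (46% in all) did so. The median difference over the 75 genes was -0.02, and 0.02 over all tested features.

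By complex, the median difference in total RNA over the listed genes, those below the filter included, was -0.09 for complex I, 0.07 for complex II, 0.10 for complex III, 0.01 for complex IV and 0.07 for complex V. Over the tested genes it was -0.05, 0.14, 0.04, 0.05 and 0.07. Complex I had 25 of its 32 genes at a negative difference, none of them called. Among its 29 tested genes 22 were negative, and 52.6% of all tested features were positive. Without replicate 1 of the knockdown total RNA, the array that lay apart, 16 complex I genes were positive and 16 negative and their median was 0.01. With the array medians centred, 18 were negative. The complex I gene with the largest positive difference was ND-B14, an accessory subunit, with 9.51 and 9.75 in control and 10.13 and 10.04 in knockdown cells. The groups did not overlap, but the difference of 0.46 ± 0.14 missed the threshold (adjusted p = 0.128 by limma). ND-B14 was called with the intensity trend and robust prior (adjusted p = 0.0443 by limma). At the other end stood ND-B14.5A, also an accessory subunit, at -0.30 ± 0.19, which ran from -0.49 to -0.11 with 1 array left out.

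In complex II, SdhB read 7.83 and 7.63 in control and 8.08 and 8.08 in knockdown total RNA, a difference of 0.35 ± 0.17 that was not called (adjusted p = 0.306 by limma). SdhC, a membrane anchor of the same complex, had a difference of -0.23 ± 0.13, also not called. In complex III the tested genes ran from -0.16 (UQCR-11L) to 0.14 (UQCR-14L), both with signals close to the filter. Complex IV held the largest uncalled value, that of COX4L, a relative of COX4 with a low signal: 2.16 and 2.35 in control and 2.68 and 3.26 in knockdown total RNA. Its difference of 0.71 ± 0.18 had adjusted p = 0.0901 by limma, and its knockdown arrays were both above its control arrays but far apart from each other. COX4L was called by limma with quantile normalization within each fraction (adjusted p = 0.0478) and with cyclic loess (0.0462). A crossed replicate block, chosen after seeing the data, called it too (0.0282). The COX4L difference ran from 0.42 without replicate 2 to 1.0 without replicate 1 of the knockdown total RNA. COX4 itself had a difference of 0.06. COX6AL had the largest negative value of complex IV, -0.25. In complex V, ATPsynC, which forms the rotating ring, read 8.68 and 8.45 in control and 9.26 and 8.72 in knockdown cells, and its difference of 0.42 ± 0.19 was not called (adjusted p = 0.282 by limma). ATPsynB, of the peripheral stalk, stood at the lower end with -0.13.

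**Figure D2:**
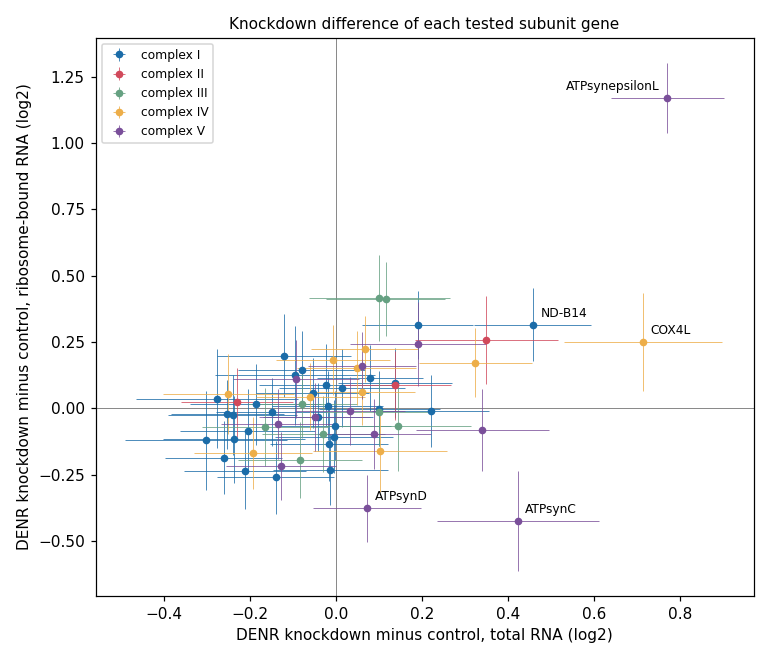
Difference between DENR knockdown and control in total RNA (horizontal axis) and in ribosome-bound RNA (vertical axis), both log2, for the 62 tested subunit genes coloured by complex, with error bars of 1 moderated standard error. ATPsynepsilonL stands at 0.77 and 1.17, COX4L at 0.71 and 0.25, and ATPsynC at 0.42 and -0.42, while most genes lie within 0.5 of 0 on both axes.

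In ribosome-bound RNA, the same gene rose and no other was called. ATPsynepsilonL read 6.20 and 6.10 in control cells and 7.30 and 7.33 in knockdown cells, with no overlap. The difference was 1.17 ± 0.13, a 2.25-fold rise (adjusted p = 0.00298 by limma), and it remained called under every alternative run, with adjusted p from 0.000711 to 0.0477. It ranked 16 among the 8164 named genes tested in this comparison, by size of rise. The 1 call in 62 is 1.61%, beside 1.34% of all features (0.653% higher and 0.692% lower). Of the 62 genes, 61 differed by less than 0.5 (98.4%, against 93.8% of all features), and 61 had a 95% interval within 1 log2 unit of 0. Before adjustment 7 genes had p under 0.05, as did 13.2% of all features. The arrays did not overlap for 18 genes that were higher and 11 that were lower, where 23.3% and 23.8% of all features (47.1% in all) did so.

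The medians by complex in ribosome-bound RNA over the listed genes were 0.00 for complex I, 0.02 for complex II, -0.01 for complex III, 0.05 for complex IV and -0.03 for complex V, and 0.01 over the 75 genes. Over the tested genes they were -0.01, 0.09, -0.04, 0.11 and -0.05, and over all tested features -0.00. No complex I gene was called, and the tested ones ran from -0.26 (ND-18, an accessory subunit close to the electron-entry module) to 0.32 (ND-B14). In complex II, SdhB read 7.82 and 7.93 in control and 8.36 and 7.91 in knockdown cells, so that the groups overlapped. In complex III, Cyt-c1L read 5.0 and 5.0 in control and 5.41 and 5.43 in knockdown cells. The groups did not overlap, and the difference of 0.42 ± 0.16 missed the threshold (adjusted p = 0.302 by limma). UQCR-6.4, a small subunit of complex III, had 0.41 with adjusted p = 0.228 by limma. RFeSP, the Rieske iron-sulphur protein, was at the other end of complex III with -0.19.

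In complex IV, the ribosome-bound differences ran from -0.17 (COX5A, a structural subunit) to 0.25 (COX4L). Complex V had its called rise and also the most negative values. ATPsynC read 9.10 and 9.33 in control and 8.74 and 8.85 in knockdown ribosome-bound RNA, a difference of -0.42 ± 0.19 (adjusted p = 0.374 by limma). ATPsynD, of the peripheral stalk, read 9.36 and 9.40 in control and 8.97 and 9.03 in knockdown cells, a difference of -0.38 ± 0.13 (adjusted p = 0.228 by limma). In both genes the knockdown arrays were lower than the control arrays, and neither was called. Across the 62 tested genes the differences in total and ribosome-bound RNA, which share no array, had Pearson's r = 0.52 and Spearman's rho = 0.41. Over all 10262 tested features these were 0.32 and 0.18. The sign was the same for 38 of the 62 genes and for 5623 of the 10262 features.

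The change in ribosome loading, the knockdown difference in ribosome-bound RNA minus that in total RNA, was tested as an interaction. No subunit gene was called, and 0% of all features were called by limma, although 1022 features (9.96%) and 2 subunit genes had an unadjusted p under 0.05. The crossed replicate block called 2 features higher and 4 lower, each other setting called at most 2 in a direction, and no setting called a subunit gene. The 2 genes were ATPsynC, with -0.85 ± 0.27 (unadjusted p = 0.00990, adjusted p = 0.480 by limma), and ATPsynD, with -0.45 ± 0.18 (adjusted p = 0.480). ATPsynC was higher in knockdown than in control cells in total RNA and lower in ribosome-bound RNA, with no overlap of the arrays in either. ATPsynepsilonL had the most positive value, 0.40 ± 0.19 (adjusted p = 0.50 by limma). Its rise in the 2 fractions was therefore not shown to differ.

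The medians of the loading values over the listed genes were 0.11 for complex I, -0.07 for complex II, -0.07 for complex III, 0.02 for complex IV and -0.01 for complex V. Over the tested genes they were 0.08, -0.05, 0.01, 0.06 and -0.01, and over all tested features -0.02. Complex I ran from -0.23 (ND-SGDH, an accessory subunit) to 0.32 (ND-B12, another accessory subunit). SdhC (0.25) and SdhB (-0.09) marked the ends of complex II, and Cyt-c1L (0.32) and UQCR-14L (-0.21) those of complex III. In complex IV the ends were COX6AL (0.30) and COX4L (-0.46). Of the 62 genes, 60 had a 95% interval within 1 log2 unit of 0, but only 15 had one within 0.5. A change in loading of 0.5 or more was therefore not excluded for most genes.

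The ribosome-bound RNA was next set against total RNA of the same treatment. RMA brings the arrays treated as 1 set to a common distribution, and the sources used here do not say whether both fractions formed 1 set. In either case a difference here is relative to the other transcripts of the array and is no absolute share of ribosome-bound mRNA. In control cells, 9 of the 62 tested genes were called, 6 higher and 3 lower in ribosome-bound RNA, which is 14.5%. Over all features 29.6% were called, 18.7% higher and 11% lower. The subunit genes therefore had a smaller share of calls than the array as a whole, and 58 of 62 differed by less than 0.5 (93.5%, against 71.8% of all features). Among features with a mean signal of at least 7, 46 of the 49 subunit genes and 69.4% of 2747 features differed by less than 0.5. The standard deviation of the differences was 0.31 over the tested subunit genes and 0.59 over all tested features. No test was made of these contrasts between the genes and the array.

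Complex I held 5 of the 9 calls, 3 higher and 2 lower. ND-75, the iron-sulphur subunit at the electron-entry end of complex I, had the largest decrease. It read 7.47 and 7.37 in control total RNA and 6.62 and 6.45 in control ribosome-bound RNA. The difference was -0.89 ± 0.13, 1.85-fold lower (adjusted p = 0.000957 by limma), and it was called under every alternative run (adjusted p from 0.000358 to 0.0149). ND-B14.5A read 9.91 and 10.29 in total and 9.41 and 9.23 in ribosome-bound RNA, a difference of -0.78 ± 0.19 and 1.71-fold lower (adjusted p = 0.0112 by limma). The groups of both genes were fully apart. The call of ND-B14.5A was lost without replicate 2 of the control total RNA (adjusted p = 0.0872) and without replicate 2 of the control ribosome-bound RNA (0.0887).

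The 3 complex I genes that were higher in ribosome-bound RNA of control cells had differences of similar size. ND-SGDH read 9.31 and 9.45 in total and 9.92 and 9.74 in ribosome-bound RNA, a difference of 0.45 ± 0.14 (adjusted p = 0.0295 by limma). ND-B14 read 9.51 and 9.75 in total and 10.02 and 10.12 in ribosome-bound RNA, a difference of 0.44 ± 0.14 (adjusted p = 0.0335 by limma). ND-ACP, the mitochondrial acyl carrier protein that also serves as a complex I subunit, read 10.13 and 10.04 in total and 10.63 and 10.41 in ribosome-bound RNA. Its difference was 0.43 ± 0.13 (adjusted p = 0.0326 by limma). Each of the 3 had both ribosome-bound arrays above both total RNA arrays. The folds were 1.37, 1.36 and 1.35, and the calls were not stable: all 3 were lost with the culture as a random block (adjusted p = 0.0538, 0.0684 and 0.0655) and when only the arrays compared were fitted. ND-SGDH and ND-ACP lost their calls without any one of the 4 control arrays (adjusted p up to 0.166 and 0.193), and ND-B14 without any of them but replicate 2 of the total RNA (up to 0.176). ND-ACP and ND-B14 also lost them without either knockdown ribosome-bound array (0.0558 and 0.0563).

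Complex I as a list lay slightly below 0 in control cells. Of its 32 genes 23 had a negative difference, with a median of -0.17, beside -0.16 over its 29 tested genes and -0.04 over all tested features. Among the 29 tested genes 20 were negative, and 45.5% of all tested features were positive. The arrays of 15 of its 29 tested genes were fully apart and lower in ribosome-bound RNA, and those of 6 were apart and higher. Over all features 65.2% were apart, 33.9% lower and 31.3% higher, and over the 62 tested subunit genes 25 were apart and lower and 17 apart and higher. With the array medians centred the complex I median was -0.07, with 18 of 32 negative and a median of 0.06 over all features. It lay between -0.23 and -0.10 when any array was left out. In knockdown cells the complex I median was -0.07 over the listed and -0.15 over the tested genes. Over the listed genes it was 0.04 without replicate 2 of the knockdown total RNA and -0.18 without replicate 1.

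The remaining 4 calls in control cells were spread over complexes II, IV and V. SdhC read 10.71 and 10.65 in total and 10.31 and 10.27 in ribosome-bound RNA, a difference of -0.39 ± 0.13 and 1.31-fold lower (adjusted p = 0.0448 by limma). This call was lost without any one of the 4 control arrays (adjusted p up to 0.183), without either knockdown ribosome-bound array (0.0732) with array medians centred (0.114), with no filter (0.0553), in the fit with culture as random block (0.0827) and with only the arrays compared (0.0716). SdhB and SdhD, the latter also a membrane anchor, were not called, with 0.15 and 0.02. No complex III gene was called, and its tested genes ran from -0.41 (Cyt-c1L, adjusted p = 0.0852 by limma) to 0.32 (UQCR-14L, close to the filter). Cyt-c1L was called with the crossed replicate block, chosen after seeing the data (adjusted p = 0.0387 by limma). Its difference ran from -0.61 to -0.22 with 1 array left out, and -0.61 was the value without replicate 1 of the control total RNA. COX7A, a nuclear subunit of complex IV, had the largest rise of all the subunit genes. It read 9.35 and 9.41 in total and 10.22 and 10.28 in ribosome-bound RNA. The difference was 0.87 ± 0.16, 1.83-fold higher (adjusted p = 0.00249 by limma), and it was called under every alternative run (adjusted p from 0.000303 to 0.0260). The other complex IV genes ran from -0.30 (COX5A) to 0.32 (COX8) with no call. COX5A was called with the intensity trend and robust prior (adjusted p = 0.0282 by limma).

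In complex V, 2 membrane-part subunits were higher in ribosome-bound RNA of control cells. ATPsynC read 8.68 and 8.45 in total and 9.10 and 9.33 in ribosome-bound RNA, a difference of 0.65 ± 0.19 and 1.57-fold higher (adjusted p = 0.0257 by limma). ATPsynE read 9.59 and 9.56 in total and 9.89 and 10.04 in ribosome-bound RNA, a difference of 0.39 ± 0.13 (adjusted p = 0.0462 by limma). Both genes had arrays fully apart. The call of ATPsynC was lost without replicate 2 of the control total RNA (adjusted p = 0.144) or without replicate 1 or 2 of the control ribosome-bound RNA (0.0526 and 0.168). That of ATPsynE was lost without any one of these 4 control arrays (up to 0.244) and without either knockdown ribosome-bound array (0.0746). With no filter (0.0569), quantile normalization within each fraction (0.0570), culture as random block (0.0838) or only the arrays compared (0.0763), ATPsynE was not called either. ATPsyndelta, of the central stalk, was the lowest of complex V with -0.25 ± 0.15 and was not called. That value was -0.44 without replicate 1 and -0.06 without replicate 2 of the control ribosome-bound RNA. The medians over the listed genes were 0.07 for complex II, -0.04 for complex III, 0.01 for complex IV and -0.00 for complex V, and over the tested genes 0.02, -0.09, 0.01 and 0.06. The number of calls rested on single arrays: 3 genes were called without replicate 2 of the control total RNA, 3 and 2 without replicates 1 and 2 of the control ribosome-bound RNA, and 5 without either knockdown ribosome-bound array. The split of 6 higher and 3 lower became 8 and 2 with array medians centred and 5 and 5 with quantile normalization within each fraction.

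**Figure D3:**
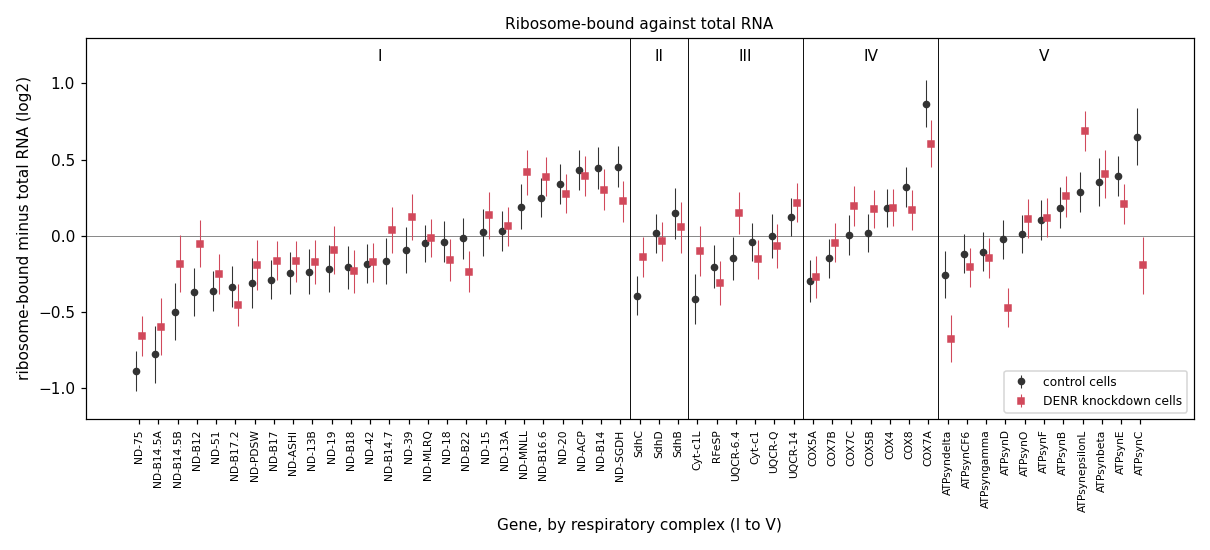
Ribosome-bound minus total RNA (log2, vertical axis) in control cells (dark circles) and DENR knockdown cells (red squares) for the 53 subunit genes with a mean signal of at least 3, grouped by complex and ordered by the control value, with bars of 1 moderated standard error. ND-75 is lowest at -0.89 in control cells and COX7A highest at 0.87, and ATPsynC changes from 0.65 in control to -0.19 in knockdown cells, a change that was not called.

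In knockdown cells, 5 of the 62 genes were called between the fractions, 2 higher and 3 lower, which is 8.06%. Over all features 15% were called, 9.13% higher and 5.85% lower. Of the 62, 57 differed by less than 0.5 (91.9%, against 81.7% of all features). The arrays of the fractions did not overlap for 18 genes that were higher and 17 that were lower in ribosome-bound RNA, where 27.1% and 28.7% of all features (55.8% in all) did so. ND-75 was again lower in ribosome-bound RNA, with 7.19 and 7.14 in total and 6.56 and 6.46 in ribosome-bound RNA. Its difference was -0.66 ± 0.13, 1.58-fold lower (adjusted p = 0.00873 by limma). COX7A was again higher, with 9.69 and 9.27 in total and 10.05 and 10.12 in ribosome-bound RNA. Its difference was 0.61 ± 0.16, 1.52-fold higher (adjusted p = 0.0263 by limma), and its total RNA arrays differed from each other more than those of ND-75. The call of ND-75 was lost without replicate 2 of the knockdown ribosome-bound RNA (adjusted p = 0.0752). That of COX7A was lost without replicate 2 of the knockdown total RNA (0.178) or without replicate 1 or 2 of the knockdown ribosome-bound RNA (0.113 and 0.146), in the fit with culture as random block (0.0515) and with only the arrays compared (0.0649). Without replicate 2 of the knockdown total RNA the COX7A difference was 0.40.

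The other 3 calls in knockdown cells were in complex V. ATPsynepsilonL was higher in ribosome-bound RNA, with 6.62 and 6.63 in total and 7.30 and 7.33 in ribosome-bound RNA, a difference of 0.69 ± 0.13 and 1.61-fold higher (adjusted p = 0.00698 by limma). In control cells the same difference was 0.29 ± 0.13 and was not called (adjusted p = 0.124), and the 2 were not shown to differ by the loading test. ATPsyndelta was lower, with 9.70 and 9.75 in total and 9.10 and 9.0 in ribosome-bound RNA, a difference of -0.67 ± 0.15 and 1.60-fold lower (adjusted p = 0.0161 by limma). ATPsynD was lower, with 9.54 and 9.41 in total and 8.97 and 9.03 in ribosome-bound RNA, a difference of -0.47 ± 0.13 and 1.39-fold lower (adjusted p = 0.0321 by limma). In all 3 genes the arrays of the 2 fractions were fully apart. The call of ATPsynepsilonL was lost without replicate 1 or 2 of the knockdown ribosome-bound RNA (adjusted p = 0.0513 and 0.0553). That of ATPsyndelta was lost without these (0.0759 and 0.108) and without replicate 2 of the knockdown total RNA (0.0694). ATPsynD lost its call without any one of the knockdown arrays (up to 0.178), without either control ribosome-bound array (0.0552) with array medians centred (0.0767), in the fit with culture as random block (0.0633) and with only the arrays compared (0.0695).

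Of the genes called in control cells, ND-B14.5A had -0.60 ± 0.19 in knockdown cells (adjusted p = 0.0600 by limma), ND-ACP 0.39 ± 0.13 (0.0766) and ATPsynC -0.19 ± 0.19 (0.579). ND-MNLL, an accessory subunit, had the largest complex I value in knockdown cells, 0.42 ± 0.15 (adjusted p = 0.0897 by limma). ND-MNLL was called by limma with cyclic loess (adjusted p = 0.0470), the intensity trend and robust prior (0.0233) and the crossed replicate block (0.0373). The ends of complex III were RFeSP at -0.31 and UQCR-14 at 0.22, and COX5A was the lowest of complex IV at -0.27. The medians in knockdown cells over the listed genes were 0.01 for complex II, -0.10 for complex III, 0.07 for complex IV and 0.01 for complex V, and over the tested genes -0.04, -0.08, 0.16 and 0.12. The 5 calls became 2 without replicate 2 of the knockdown total RNA, 1 without replicate 1 of the knockdown ribosome-bound RNA and 0 without its replicate 2. With cyclic loess 5 genes were higher and 3 lower.

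Across the 62 tested genes, the difference between the fractions in control cells and that in knockdown cells, which share no array, had Pearson's r = 0.73 and Spearman's rho = 0.70. Over all tested features these were 0.82 and 0.69. The sign was the same for 51 of the 62 genes and for 7523 of the 10262 features. COX7A was called higher and ND-75 lower in both, and opposite calls were found for none of the 62. Of all 10262 tested features, 864 were called higher in both, 391 lower in both and only 1 in opposite directions.

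**Figure D4:**
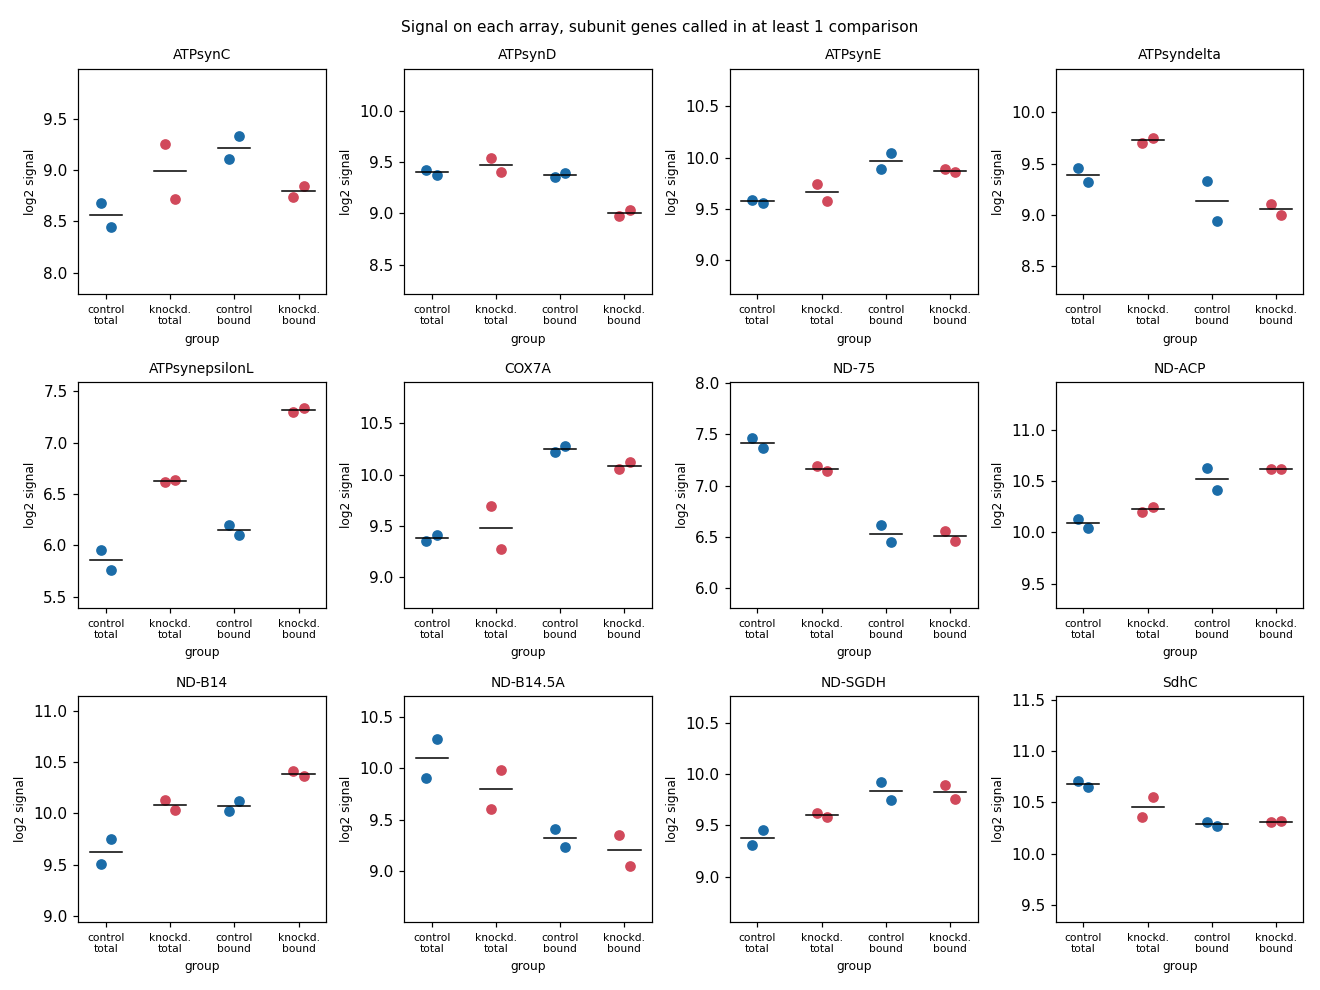
Log2 signal on each array (points; blue for control, red for DENR knockdown) with group means (black lines) for the 12 subunit genes called in at least 1 comparison, each vertical axis covering 1.1 log2 units on either side of the gene's mean over the 8 arrays. The knockdown arrays of ATPsynepsilonL lie above the control arrays in both fractions, and the ribosome-bound arrays of ND-75 lie below the total RNA arrays in both treatments.

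Of the 75 genes, 7 had more than 1 probe set, and the sets did not always give the same value. With all probe sets tested, the second set of ATPsynbeta had 0.68 between the fractions of control cells (adjusted p = 0.0270 by limma), beside 0.35 for the brightest set, and the knockdown difference in ribosome-bound RNA was -0.53 for the second and 0.24 for the brightest set, neither called. The second set of ND-B17, an accessory subunit of complex I, was called lower between the fractions in control cells (-0.49) and in knockdown cells (-0.61), where the brightest set had -0.29 and -0.16. A second set of RFeSP with a low signal was called lower in both (-0.59 and -0.46), and the brightest set was not (-0.20 and -0.31). The other ND-ACP sets had 0.35 and 0.15 between the fractions in control cells and were not called, beside the called 0.43 of the brightest set. ATPsyngamma, of the central stalk, had -0.10 and 0.05 in its 2 sets, and COX7B had -0.15 and -0.37, none of them called. The second set of COX7C was below the filter and not tested. Between the fractions it had -0.32 in control and -0.56 in knockdown cells, beside 0.01 and 0.20 for the brightest set.

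Related mitochondrial genes were counted in the same fit. The knockdown comparisons called 1.58% of all features in total and 1.34% in ribosome-bound RNA. Between the fractions, 18.7% were higher and 11% lower in control cells, and 9.13% higher and 5.85% lower in knockdown cells. The list planned as electron carriers and assembly factors held 17 genes and no cytochrome c gene. They were mostly assembly factors and Coq genes of ubiquinone synthesis, with levy, a subunit gene of complex IV. In the knockdown comparisons 1 of them was called: Nubpl, which delivers iron-sulphur clusters to complex I. It fell in ribosome-bound RNA from 8.52 and 8.45 to 7.82 and 7.76 (-0.70 ± 0.13, adjusted p = 0.0361 by limma). Between the fractions of control cells, 3 of the 17 were lower: Cox11 (-0.59), a copper chaperone of complex IV, and Coq7 (-0.56) and Coq5 (-0.49), enzymes of ubiquinone synthesis. Of 16 tested genes of mitochondrial import and carriers, 6 were higher between the fractions of control cells and 4 in knockdown cells, with none lower. Tim23, the channel of the inner membrane translocase, had 1.28 and 0.74, Tim9a, a chaperone of the intermembrane space, 1.14 and 1.04, and Tim17b 0.86 and 0.61. Of 11 tested citric acid cycle genes, Idh3g was higher (0.67) and Idh3b (-1.27) and Ogdh (-0.98) lower in control cells, and Idh3b (-1.05) and Ogdh (-1.36) were lower in knockdown cells. No citric acid cycle gene was called in the knockdown comparisons. Of 9 tested glycolysis genes, 1 rose with knockdown in total RNA: Pfk, the committed step, from 5.73 and 5.55 to 6.37 and 6.49 (0.79 ± 0.14, adjusted p = 0.0216 by limma).

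Of 7 nuclear regulators and mitochondrial genome genes, ewg, a transcription factor, was called between the fractions of control cells (0.67). Of 4 genes of mitochondrial dynamics and inner-membrane upkeep, Marf (1.22) and Letm1 (0.73) were higher and Opa1 (-0.53) lower in control cells, with no call in the other comparisons.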

How the data were processed

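The 8 arrays were assigned to 4 groups of 2 from their titles. The authors deposited 1 log2 value per probe set, computed with RMA according to the submitters' processing notes. The log2 scale was inferred from the range of values (0.83 to 12.88), and the sources used here do not say whether RMA treated all arrays as 1 set. RMA in general removes a change that most transcripts share. No detection calls were used.

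Of 18952 probe sets, 183 control sets were left out. A table of probe sets and genes gave 13647 sets 1 symbol, 402 several and 4720 none, and 13544 matched a RefSeq gene table of Drosophila. All 75 subunit genes matched it. The brightest probe set per gene and all unnamed sets gave 17104 features, of which the brightest 60% by mean were tested (10262).

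With limma 3.58.1 in R 4.3.3, a model of 4 group means was fitted to all 8 arrays and gave 5 contrasts, with empirical Bayes moderation (4 residual and 5.93 prior degrees of freedom), two-sided p-values and a threshold of 0.05 on p after Benjamini-Hochberg adjustment. Errors are moderated standard errors. The script was tested on simulated data.

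The genes and lists were chosen with earlier results of these data known. Named were all called genes, the largest rise and fall per complex and comparison, genes with an L relative, genes whose probe sets disagreed, and at most 3 called genes per related list and comparison. Genes outside this rule are named after their values were seen. As alternatives, the fit was repeated with a replicate block, with culture as a random block, with other filters (none, brightest 40%, minimum mean 5), all probe sets, 3 other normalizations, an intensity trend with a robust prior, the compared arrays alone, and without each array in turn. A crossed replicate block was chosen after seeing the data. Plots were made in matplotlib 3.10.9.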

Additional observations from a re-analysis of the deposited data

How the results depend on the processing

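The 16 calls of subunit genes kept their direction under each alternative run. Counted as 1 outcome per call and alternative, 245 outcomes stayed past the threshold and 75 missed it. The calls of ATPsynepsilonL in ribosome-bound RNA and of ND-75 and COX7A between the fractions of control cells held under every alternative run. The number of genes called in total RNA (1) became 2 with quantile normalization within each fraction, cyclic loess, the intensity trend with robust prior or the crossed block, 0 when only the arrays compared were fitted, and 0 to 1 with an array left out. In ribosome-bound RNA (1) it became 2 with the intensity trend and stayed at 1 with any array left out, and for loading it was 0 throughout. Between the fractions of control cells (9) it became 4 with the culture as a random block, 16 with the intensity trend, 4 with only the arrays compared, 14 with the crossed block, and 2 to 10 with an array left out. In knockdown cells (5) it became 3 with the culture as a random block, 9 with a minimum mean of 5, 8 with cyclic loess, 10 with the intensity trend, 3 with only the arrays compared, 11 with the crossed block, and 0 to 6 with an array left out.

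The median over the 75 genes between the fractions of control cells was -0.03 and turned to 0.067 with array medians centred (-0.06 to -0.01 with an array left out). In knockdown cells it was -0.04 and ran from -0.088 to 0.036, the highest without replicate 2 of the knockdown total RNA. Values that turned sign were those of SdhB for loading (-0.09, and -0.32 to 0.13 with an array left out), which turned to 0.0099 without replicate 2 of the control total RNA and 0.13 without replicate 2 of the knockdown ribosome-bound RNA. UQCR-14L for loading (-0.21, and -0.43 to 0.0097) turned without replicate 1 of the control ribosome-bound RNA, and SdhB between the fractions of knockdown cells (0.06, and -0.17 to 0.28) turned without replicate 1 of the knockdown ribosome-bound RNA. None of these was called. Over all features, centring moved the calls between the fractions of control cells from 1915 higher and 1125 lower to 2039 and 711, and cyclic loess moved those in total RNA from 90 and 72 to 91 and 110. The cause of these changes was not tested.

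Replicate numbers are shared between groups, but the labels give them no meaning. Deviations of same-numbered arrays correlated at -0.20 between the fractions of control cells, -0.31 between those of knockdown cells, and 0.38 and 0.27 between treatments. A replicate block gave 1 called gene in total RNA, 1 in ribosome-bound RNA, 0 for loading, 6 between the fractions of control cells and 4 in knockdown cells. Under it SdhC (adjusted p = 0.0700), ATPsynE (0.0718) and ND-B14 (0.0517) lost their limma calls in control cells and ATPsynD (0.0562) in knockdown cells. With 2 arrays a group, signals close to the filter, such as those of most L genes, call for caution. The L genes ATPsynepsilonL (mean 6.49) and Cyt-c1L (5.34) lay well above it. How reliability depends on signal was not tested.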
